A study of Homo sapiens with 8 samples.

Results

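Chromatin bound by p63 was examined at 9 genes known as targets of the p53 pathway: CDKN1A, MDM2, SFN, GADD45A, BBC3, FAS, TP53I3, ZMAT3 and STK17A. For each gene a window of hg19 was set around the locus, and a listed p63 region was taken as a member when its midpoint fell inside. The windows were 100 to 200 kb wide and together spanned 1.20 Mb. They held 32 different regions of the 15267 that the deposited lists contain when a region found in both lists is counted once. Of the CAL27 list, 31 of 13829 regions were members, and of the SCC13 list 21 of 5886. The study profiled CAL27, an established line from a squamous carcinoma of the tongue, and SCC13, an established line from a squamous carcinoma of the skin. All cells carried the label WT for genotype and None for treatment, and each line had 2 samples of p63 chromatin immunoprecipitation and 2 samples titled none, which are not analysed here. The lists are 1 per line, with both p63 samples behind each, so no spread between replicates could be computed and no test of a difference between lines was made. Neither a read depth nor a peak height comes with the lists, so absence from a list does not mean absence of binding.

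p63 and p53 are members of 1 family of transcription factors and recognise closely related DNA sites, built from a decamer that occurs as a pair with a short spacer or none. In stratified epithelium the short p63 isoforms maintain the basal keratinocyte state, and they are known to occupy many of the elements through which p53 activates its targets after DNA damage. The targets fall into 3 roles here: control of the cell cycle and of p53 itself (CDKN1A, MDM2, SFN, GADD45A), cell death (BBC3, FAS, TP53I3, STK17A) and RNA binding (ZMAT3). Binding of p53 was not measured.

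Promoter sequence of these genes can be searched for such a site. RefSeq promoter sequences of GRCh38.p14, from 250 bases before to 50 bases after an annotated start, were matched by symbol for 8 of the 9 genes, in 14 entries; GADD45A had none. They were searched for the p53 family decamer consensus, which reads the same on both strands, and for pairs of it with a spacer of 0 to 13 bases. An exact pair occurred in none of the 8 genes and in 0.0366% of the 27305 genes with promoter sequence. An exact single decamer occurred in 1 of the 8, FAS, against 8.06% of all genes. A pair with at most 1 mismatch occurred in 0 of the 8, against 0.934% of all genes. A pair with at most 2 mismatches, a limit added after the data were seen, occurred in 2 of the 8, FAS and MDM2. Among all genes 9.53% had one. Over single promoter entries the share was 7.82%. A gene was counted if any of its entries matched, and FAS and MDM2 each had several. For both genes a p53 response element in the first intron is known from earlier work. Whether the pairs found here are those elements was not examined. The best pair of MDM2, and the pair of FAS that holds the exact decamer, had no spacer. They are shown with up to 20 bases on either side, beside the best pairs of CDKN1A and STK17A, the genes whose windows held the most p63 regions. Capitals mark the decamers of each pair, mismatches included. Those of CDKN1A and STK17A, with 4 and 5 mismatches, are poor matches to the consensus and are shown for contrast.
FAS, chr10:88991289-88991348, plus strand: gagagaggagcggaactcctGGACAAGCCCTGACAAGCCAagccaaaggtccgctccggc
MDM2, chr12:68808903-68808962, plus strand: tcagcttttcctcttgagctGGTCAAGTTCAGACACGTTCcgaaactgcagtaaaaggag
CDKN1A, chr6:36678517-36678580, plus strand: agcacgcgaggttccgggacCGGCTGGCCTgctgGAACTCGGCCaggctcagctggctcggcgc
STK17A, chr7:43583055-43583107, plus strand: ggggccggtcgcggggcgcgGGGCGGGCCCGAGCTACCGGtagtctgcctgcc

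In FAS the pair shown began 122 bases before the start of its entry, with 0 mismatches in the first decamer and 2 in the second; a pair in another FAS entry also had 2, with a spacer of 11 bases. In MDM2 it lay in 2 entries, 94 and 101 bases before their starts, with 1 mismatch in each decamer. Other entries of FAS and of MDM2 start farther upstream. Both pairs shown therefore lie downstream of those starts and can be inside the gene. The best pairs in CDKN1A and STK17A had 4 and 5 mismatches, with spacers of 4 and 0 bases. The other 4 genes had 3 mismatches (BBC3, TP53I3, ZMAT3) or 4 (SFN) in their best pair, and 44.2% of all genes had a pair with at most 3. These positions are in GRCh38.p14 and were not converted to hg19. Whether a pair lies in one of the p63 regions given next, which are in hg19, was therefore not examined. A match is a description of letters, and elements farther from a start lie outside these 300 bases. Whether a p63 region covered a promoter, an exon or an intron is not analysed here, nor to which gene of a window a region belongs. Neighbouring genes are named for the gene itself, from RefSeq order on GRCh38.p14, and a window can reach into them or beyond.

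All 9 windows held a p63 region that was listed in both lines, and in each window the widest region was one of these. At FAS, TP53I3, ZMAT3 and STK17A this could not be otherwise, since every region there was in both lists. At SFN the widest was 2394 bp, against 2393 bp for a CAL27-only region. Of the 31 CAL27 member regions, 20 were also listed in SCC13, or 64.5% (95% exact binomial interval 45.4 to 80.8), against 32.2% of the whole CAL27 list. Of the 21 SCC13 member regions, the same 20 were listed in CAL27, or 95.2% (76.2 to 99.9), against 75.6% of the whole SCC13 list. All 20 had the same start and end in both lists. So did all 4448 regions in both lists over the genome, with no partial overlap. The sources used here do not say how the regions were set. Being listed in both lines may therefore depend on how the lists were built, which was not tested. The remaining members were 11 regions listed in CAL27 only, spread over CDKN1A, MDM2, SFN and BBC3, and 1 listed in SCC13 only, at GADD45A. CAL27 had the longer list at 4 genes, SCC13 at 1, and at 4 genes (FAS, TP53I3, ZMAT3 and STK17A) the lists were identical. These intervals cover counting error only and treat neighbouring regions as independent.

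The windows held 25.8 CAL27 regions per Mb, against 4.72 per Mb between the first and last listed region of each chromosome, a ratio of 5.47. In SCC13 they held 17.5 per Mb against 2.01, a ratio of 8.71. The density came from few windows: CDKN1A, MDM2, SFN and STK17A held 24 of the 31 CAL27 regions. To give each count a scale, the genome was divided into adjacent tiles of the width of each window, with no account taken of where genes lie. FAS, TP53I3 and ZMAT3 held 1 region per line, as did GADD45A in CAL27, and 30.8 to 40.1% of CAL27 tiles and 17.8 to 23.0% of SCC13 tiles of those widths held at least 1, so a single region sets these windows little apart. A region in both lists, which every window held, occurred in 12.7 to 22.5% of tiles, depending on their width.

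**Figure D1:**
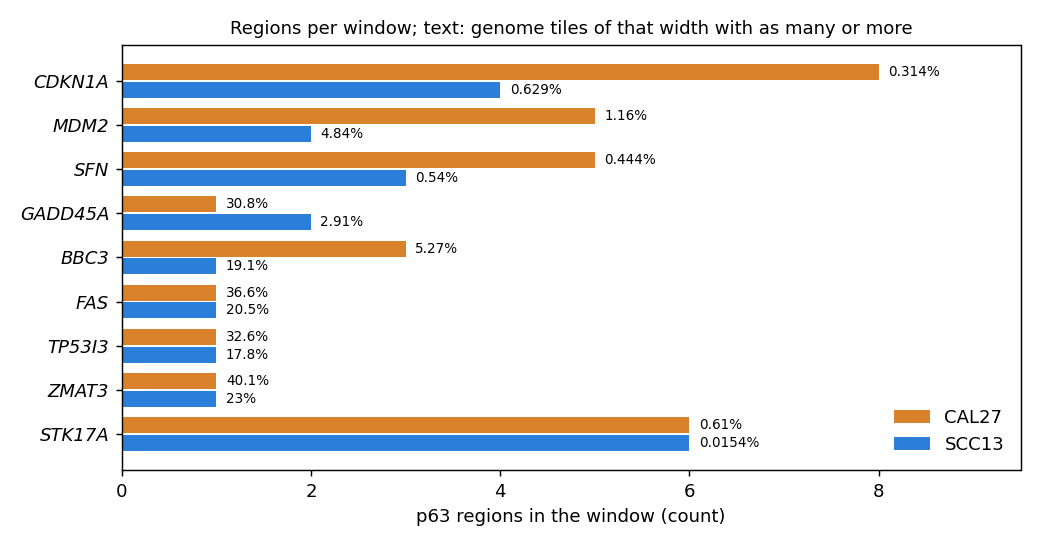
Number of listed p63 regions (horizontal axis, count) in the window of each gene, for CAL27 (orange) and SCC13 (blue), with 1 list per line and no error bars. The percentage at each bar is the share of genome tiles of the same width with as many regions or more in that line; it is lowest for STK17A in SCC13, at 0.0154%, and at least 17.8% wherever a bar shows 1 region.

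In RefSeq gene order CDKN1A stands between SRSF3 and RAB44, and it encodes p21, the cyclin-dependent kinase inhibitor through which p53 arrests the cell cycle. Its window, chr6 from 36.55 to 36.75 Mb, held 8 CAL27 regions, the most of the 9, and 4 SCC13 regions. Only 0.314% of 200 kb tiles held 8 or more in CAL27 and 0.629% held 4 or more in SCC13. The 4 regions of both lines were chr6:36575307-36576426 (1120 bp wide), chr6:36634538-36635482 (945 bp), chr6:36643904-36644513 (610 bp) and chr6:36649937-36650984 (1048 bp). CAL27 alone had 4 more, at chr6:36584847-36585306 (460 bp), chr6:36644875-36645413 (539 bp), chr6:36647970-36648705 (736 bp) and chr6:36690404-36691124 (721 bp). In CAL27, 5 of the 8 stood within 16.4 kb, and 3 of those 5 were the SCC13 regions there. Among the CAL27-only regions, the 539 bp one began 361 bp after the end of the shared 610 bp region, while the 721 bp one began 39419 bp after the last shared region.

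MDM2, which stands between SLC35E3 and CPM, encodes the ubiquitin ligase that degrades p53 and is itself switched on by p53. Its window, chr12 from 69.15 to 69.29 Mb, held 5 CAL27 regions and 2 SCC13 regions, counts reached by 1.16% and 4.84% of 140 kb tiles. The regions of both lines were the 2 widest, chr12:69180837-69182399 (1563 bp) and chr12:69201671-69203232 (1562 bp), with midpoints 20834 bp apart. Only 9.15% of all regions in both lists were as wide as the first. The CAL27-only regions were chr12:69175094-69175539 (446 bp), chr12:69215707-69216253 (547 bp) and chr12:69261479-69262498 (1020 bp). No 3 regions of this window stood in a row with gaps of at most 12.5 kb, unlike at CDKN1A and SFN.

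SFN, which stands between ZDHHC18 and GPN2, encodes 14-3-3 sigma, an epithelial protein that holds cells before mitosis and is abundant in keratinocytes. Its window, chr1 from 27.14 to 27.24 Mb, held 5 CAL27 and 3 SCC13 regions, counts reached by 0.444% and 0.540% of 100 kb tiles. Regions covered 8.16% of the window in CAL27 and 5.02% in SCC13, the largest covered shares of the 9 windows. The regions of both lines were chr1:27181081-27182326 (1246 bp), chr1:27187303-27189696 (2394 bp) and chr1:27191054-27192429 (1376 bp). The 2394 bp region was the widest member and ranked 34 of 13829 by width in CAL27 and 26 of 5886 in SCC13. Between the first and second of them CAL27 alone had chr1:27184127-27186519, which was 2393 bp wide and ranked 9 among the 9381 CAL27-only regions. These 4 stood within 11.3 kb. The fifth CAL27 region, chr1:27220632-27221383 (752 bp), lay 28202 bp beyond them.

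GADD45A, between SERBP1 and GNG12 in gene order, encodes a stress protein that acts in growth arrest and DNA repair. Its window, chr1 from 68.10 to 68.20 Mb, was the only one with more SCC13 than CAL27 regions. The region of both lines was chr1:68151837-68152964 (1128 bp). SCC13 also had chr1:68100796-68101234, which was 439 bp wide, with 78.4% of regions listed in SCC13 only at least as wide, and whose midpoint lay 1.01 kb inside the edge of the window. It was the member nearest to an edge, and without this window 100% of the SCC13 members were listed in CAL27.

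BBC3, between SAE1 and CCDC9 in gene order, encodes PUMA, a BH3-only protein that starts mitochondrial cell death. Its window, chr19 from 47.67 to 47.79 Mb, held 3 CAL27 regions and 1 SCC13 region, counts reached by 5.27% and 19.1% of 120 kb tiles. The region of both lines was chr19:47733747-47735088 (1342 bp). CAL27 alone had chr19:47735345-47736320 (976 bp), which began 256 bp farther on, and chr19:47740353-47740824 (472 bp). All 3 stood within 7.08 kb. A CAL27-only region of 2171 bp, chr19:47791838-47794008, had its midpoint 2.92 kb outside the window and was not counted; it was the outside region nearest to any edge, ahead of one of 717 bp 4.41 kb outside the GADD45A window.

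STK17A, between HECW1 and COA1 in gene order, encodes DRAK1, a kinase linked to cell death that is a known p53 target. Its window, chr7 from 43.57 to 43.72 Mb, held 6 regions, and all 6 were listed in both lines. Their positions were the same in both, as for every region in both lists. Of 150 kb tiles, 0.610% held 6 or more regions in CAL27 and 0.0154%, or 3 of 19519, in SCC13. The regions were chr7:43607969-43608642 (674 bp), chr7:43608930-43609439 (510 bp), chr7:43616522-43617603 (1082 bp) and chr7:43625568-43626453 (886 bp), which stood within 18.5 kb, and chr7:43675427-43676390 (964 bp) and chr7:43676957-43677895 (939 bp), which stood within 2.47 kb. Width did not set these 6 apart from other regions of both lists, whose median was 934 bp, and the 510 bp region was among the narrowest of them: 98.1% were at least as wide. STK17A was thus the only window with more than 1 region in which the lists did not differ.

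FAS encodes the death receptor CD95, TP53I3 an oxidoreductase induced by p53, and ZMAT3 a zinc-finger protein that binds RNA. Each of the 3 windows held a single region, listed in both lines. At FAS it was chr10:90750326-90751394 (1069 bp), in the window from 90.70 to 90.83 Mb. At TP53I3 it was chr2:24306836-24307702 (867 bp), in the window from 24.25 to 24.36 Mb. At ZMAT3 it was chr3:178786926-178788494 (1569 bp), in the window from 178.69 to 178.84 Mb. In gene order FAS stands between ACTA2 and CH25H, TP53I3 between FAM228B and PFN4, and ZMAT3 between LOC124909461 and PIK3CA. The ZMAT3 region was the widest member outside the SFN window, with 8.99% of regions in both lists at least as wide. The nearest other region of either list was 62510 bp away at ZMAT3, 127101 bp at FAS and 138079 bp at TP53I3, between midpoints.

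Member regions stood close to one another. In CAL27, 22 of 31 had another CAL27 midpoint within 12.5 kb, against 25.2% of the whole list, and the median distance to the nearest was 6302 bp against 36540 bp. In SCC13, 12 of 21 had one, against 12.3%, with a median of 8948 bp against 102449 bp. Groups of 3 or more regions joined at that distance were found at CDKN1A, SFN, BBC3 and STK17A in CAL27 and at CDKN1A, SFN and STK17A in SCC13. No count of such groups over the whole lists is given here, so the group numbers in this paragraph have no genome-wide scale. Joined within 5000 bp instead, the SCC13 members formed 0 such groups and the CAL27 members 3. Of the 23 neighbouring pairs within windows, 5 were separated by less than 1000 bp from edge to edge, or 21.7%. They were 1 pair each at CDKN1A, SFN and BBC3, where 1 region of the pair was listed in both lines and the other in CAL27 only, and 2 pairs at STK17A, where all were listed in both. Over all regions the share was 1.61% of 15244 neighbouring pairs. Those pairs had gaps of any length, whereas a member pair had to lie within 1 window. The 2 shares are therefore not like for like, and the rule for members leaves out long gaps. With neighbours within 12.5 kb counted once, the windows held 16 groups in CAL27 and 13 in SCC13.

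A region in both lists had the same width in each, so its width does not compare the lines. Regions of both lines were the wider ones within the windows. Their median width was 1076 bp over 20 regions (range 510 to 2394), against 934 bp over all 4448 regions in both lists, and 15 of the 20 were above that 934 bp. The 11 CAL27-only members had a median of 721 bp (range 446 to 2393), against 723 bp over all 9381 CAL27-only regions, and 5 of the 11 were above 723 bp. Wide regions were more often listed in both lines over the whole genome. Whether width accounts for the shared percentage of the members was not tested. The shares are also given above the median width of each list. There 17 of 20 CAL27 members were also in SCC13, or 85% (exact interval 62.1 to 96.8), against 44.3% of such regions in the whole list. All 17 SCC13 members there were in CAL27 (exact interval 80.5 to 100), against 90.5%. Among the narrower CAL27 members 3 of 11 were shared, or 27.3% (exact interval 6.02 to 61.0), against 20.1% of the whole list. None of these intervals serves as a test, because the windows were chosen with earlier results known and neighbouring regions may not be independent. No measure of binding strength came with the lists to set beside the widths.

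**Figure D2:**
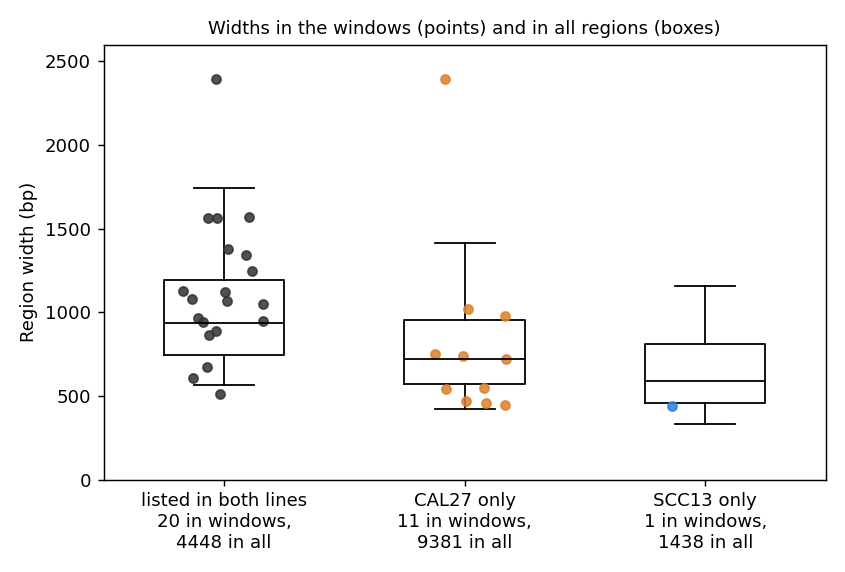
Width in bp (vertical axis) of the member regions (points) by listing in both lines, CAL27 only or SCC13 only; boxes show the median and quartiles of all regions of that listing in the genome, with whiskers from the 5th to the 95th percentile. The highest points of the first and second columns are the 2394 bp and 2393 bp regions at SFN, and 15 of 20 points in the first column lie above the line of the box at 934 bp.

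The shared percentage was also taken with windows of other sizes. The central part of each window kept 50% of its width. There 72.0% of CAL27 members (exact interval 50.6 to 87.9) and 100% of SCC13 members (81.5 to 100) were listed in the other line. With 50 kb added on each side these were 53.8% (37.2 to 69.9) and 87.5% (67.6 to 97.3). Without STK17A, whose 6 regions share a neighbourhood, the CAL27 share was 56.0% (34.9 to 75.6). These intervals overlap widely, and a dependence on window size was not tested.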

How the data were processed

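Chromatin of both lines was fixed with formaldehyde and precipitated with an antibody to p63, as the labels describe. Bowtie2, SAMtools 1.8, MACS2 and hg19 appear in the submitters' processing notes; what each was used for, the peak threshold and the handling of replicates were not given in the sources used here. For each line the authors deposited chromosome, start and end of each region, with no score, signal or other measured value. Positions are printed counted from 1. Windows and genes were chosen with earlier results of these data known, so no enrichment test was run, and all 9 genes are named by rule. Alternatives changed the window, the matching rule, the width filter, the joining distance and the loci included. Regions matched when they overlapped by at least 1 bp. Tiles ran from the first to the last listed region of a chromosome, unmappable stretches included. Gene order and promoters are from RefSeq on GRCh38.p14; without an hg19 annotation, other p53 pathway genes and gene parts are not analysed here. Shares have exact Clopper-Pearson 95% intervals. The functions were tested on simulated data, where 1183 of 1183 planted shared regions and 20 of 20 window members were found. The planted shared regions were exact copies and the windows were centred on their members. Partial overlap and window edges were therefore not tested. Calculations ran in Python 3.11.15 (numpy 2.4.6, pandas 2.3.3, scipy 1.17.1) and figures were drawn with matplotlib 3.10.9.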

Additional observations from a re-analysis of the deposited data

How the results depend on the processing

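No paired analysis was possible because the p63 samples of a line share 1 list, which also left no single replicate to omit. Of 89 alternatives computed, 79 stayed within 1.5 times a count or within the interval of a share or median. Many of these could not do otherwise. Leaving out 1 window kept at least 23 of the 31 CAL27 and 15 of the 21 SCC13 regions, inside that limit. Other matching rules could not change a share. The 79 is therefore not a measure of robustness. The 31 CAL27 regions became 20 when only regions at least as wide as the list median were kept and 16 with neighbours within 12.5 kb counted once, and the 21 SCC13 regions became 13 with neighbours counted once. Above the median width the shared percentage rose to 85% for CAL27 and 100% for SCC13; it was also 100% for SCC13 in the central part of the windows and without GADD45A, where the only SCC13-only member lies. Groups of 3 or more SCC13 members fell from 3 to 0 when joined within 5000 bp. The count of genes with a promoter pair rose from 0 to 2 with 2 mismatches allowed, and neighbouring pairs of members fell from 15 joined by midpoints to 5 by edges under 1000 bp. Both were added after the data were seen, as was a share over the windows with under 5 CAL27 regions. For CAL27 that share was 71.4%, or 5 of 7 regions (exact interval 29.0 to 96.3), against 32.2% of the whole list. It rests on 7 regions only and was not tested. All 3 other rules of matching gave the same shares, since matched regions are identical. Read depth is unknown, so no limit of detection can be given.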
